A study of Mus musculus with 3 samples.

Results

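The axon initial segment and the node of Ranvier share a scaffold of membrane and cytoskeletal proteins, and 8 genes of that scaffold were followed here across classes of hippocampal nuclei. The genes were picked by symbol in the gene lists of the libraries: Ank3, Sptbn4, Nfasc, Nrcam, Cntn1, Cntn2, Cntnap1 and Cntnap2, which are 8 of 32285 genes counted, and each symbol was found. Nuclear RNA came from the hippocampus of 3 adult female Scn8aD/+ mice, labelled post-onset 1, 2 and 3. All 3 mice carry the D allele of Scn8a, whose protein is the main sodium channel of mature initial segments and nodes, and form 1 group. No control animals were analysed here, and every comparison sets 1 class of nuclei against another from the same animals. The batch label differs in every mouse, and a batch effect and a difference between mice cannot be told apart. The strain was not given in the sources used here, and 3' counts do not show the allele.

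At the initial segment and at nodes, ankyrin-G clusters sodium and potassium channels and is tied to actin by a spectrin, while adhesion proteins of the L1 family, neurofascin and NrCAM, bind ankyrin from the membrane. Beside each node, in the paranode, the axonal pair contactin and Caspr meets a glial form of neurofascin. In the adjoining juxtaparanode, the contactin-related protein TAG and Caspr2 hold potassium channels in place, and TAG is made by both the axon and the oligodendrocyte. Axon and glial partner therefore draw on the same small gene families, and neurofascin is made in a glial and a neuronal isoform from 1 gene. Counts from the 3' end give the gene and not the isoform.

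The libraries held 8863, 13904 and 4659 barcodes and between 50931257 and 140527761 UMIs (unique molecules), and 7890, 11733 and 4401 nuclei of mice 1, 2 and 3 were kept. Nuclei were clustered without the 8 genes and their relatives, and clusters were named from marker genes, written with -like. In 19 of 35 clusters, 80% or more of the nuclei came from a single mouse: granule-like nuclei of mice 1 and 2 lay in 1 cluster and those of mouse 3 in another, CA1-like nuclei likewise, while most oligodendrocyte-, microglia- and CA3-like nuclei fell into a separate cluster for each mouse. In 2 clusters the 10 leading genes held more markers of another class than of their own. A CA3-like cluster with 949 nuclei of mouse 2 had 2 CA2 markers and 1 CA3 marker. A CA1-like cluster with 586 nuclei of mouse 3 had 1 astrocyte marker, Gpc5, and no CA1 marker. Results on the CA fields are therefore also given without both clusters. Gpc5 was also among the leading genes of the other CA1-like cluster, so it does not set the cluster of mouse 3 apart from CA1-like nuclei. Nuclei left unnamed numbered 338, 4239 and 31, or 4.28%, 36.1% and 0.704% of the nuclei kept. Between 13 and 36 barcodes were shared by any pair of libraries. Mouse 2 stood apart: its median was 1711 UMIs per barcode, against 8859 in mouse 1 and 25775 in mouse 3, and its glial nuclei held more neuronal RNA. The median level of 10 neuronal markers in oligodendrocyte-like nuclei was 14.5%, 59.6% and 18.4% of that in neuron-like nuclei of mice 1, 2 and 3. In microglia-like nuclei it was 21.1%, 73.0% and 19.8%, and none of the 10 markers was at 0 in either class. Values below are CPM, the UMIs of a gene in the summed nuclei of a class scaled to a common total, in the order of mice 1, 2 and 3, and n is mice.

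Upstream sequence was available for 6 of the 8 genes, in 13 RefSeq entries on GRCm38.p6, and is shown for the genes whose levels differed most between classes, Cntn2, Nfasc and Cntnap2. The runs read 5′ to 3′ on the gene's strand, hold bases before a RefSeq start and were cut to the stretch with no annotated exon. All lie inside the gene's span in GENCODE M21 on the same build. The Nfasc span begins at 132741797 on its strand, so both Nfasc runs lie within the gene. First and second start of Nfasc refer to the RefSeq entries, not to the beginning of that span. Cntn2 is shown from chr1:132542941-132543028 on the minus strand, Nfasc from chr1:132707407-132707576 and, for a start further along the gene, chr1:132642859-132643108, both on the minus strand, and Cntnap2 from chr6:45059811-45060060 on the plus strand.
Cntn2: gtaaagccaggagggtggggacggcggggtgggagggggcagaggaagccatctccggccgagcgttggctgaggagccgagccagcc
Nfasc, first start: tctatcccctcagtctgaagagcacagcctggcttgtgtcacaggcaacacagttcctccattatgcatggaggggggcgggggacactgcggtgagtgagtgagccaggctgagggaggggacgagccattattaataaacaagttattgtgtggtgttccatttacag
Nfasc, second start: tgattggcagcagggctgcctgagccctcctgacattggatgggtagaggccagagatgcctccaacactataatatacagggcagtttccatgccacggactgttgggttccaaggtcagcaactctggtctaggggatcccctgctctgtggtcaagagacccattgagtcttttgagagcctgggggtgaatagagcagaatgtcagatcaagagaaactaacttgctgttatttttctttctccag
Cntnap2: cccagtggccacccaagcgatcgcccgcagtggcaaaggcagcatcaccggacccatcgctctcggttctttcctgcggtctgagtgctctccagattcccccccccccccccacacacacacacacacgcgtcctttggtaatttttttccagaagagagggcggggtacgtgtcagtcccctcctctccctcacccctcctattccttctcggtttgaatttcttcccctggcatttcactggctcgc
Short motifs were searched on both strands in the 250 bases before each start, and matches would stand in capitals. The letters AACAAAG, a core of sites of SOX factors, stood in 5.03% of 32851 mouse entries of the same length. Another SOX core, AACAATG, stood in 3.29% of them. For MYRF, a factor of myelinating oligodendrocytes, CTGGCAC stood in 4.19% of the entries. Its second form, CTGGTAC, stood in 1.83%. None fell in the 4 runs printed, and 2 of the 13 entries held a match, 1 of Cntn1 with a SOX core and 1 of Cntnap2, at a later start, with the second MYRF form. At least 1 of the 4 motifs stood in 13.6% of all entries, so 2 of 13 is near that share. A missing match says only that these letters are not in the window.

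Each of the 8 genes had its own order of classes. By the mean of the mice, Cntn2 was highest in oligodendrocyte-like nuclei and so was Nfasc, Nrcam and Cntn1 were highest in OPC-like nuclei (oligodendrocyte precursors), and Cntnap1 was highest in Pvalb-like inhibitory nuclei. Sptbn4 was highest in granule-like nuclei, and Ank3 and Cntnap2 in Cajal-Retzius-like nuclei. The class means of Ank3 and Sptbn4 across 16 classes spanned 3.73-fold and 3.92-fold, against 30.5-fold for Cntnap2 and 101-fold for Cntn2. Of the 15 neighbouring pairs in the order of class means, the ranges of the mice overlapped in 15 for Ank3 and for Cntnap1, in 14 for Sptbn4 and Nrcam, in 13 for Nfasc, Cntn1 and Cntn2, and in 10 for Cntnap2. Per kilobase of gene span, the level in neuron-like nuclei was 2.96 CPM for Ank3, 2.68 for Nrcam, 2.27 for Sptbn4, 1.98 for Cntn1, 1.43 for Nfasc, 1.12 for Cntnap2, 1.05 for Cntnap1 and 0.420 for Cntn2. Span includes introns, and the sources used here do not say how intronic reads were treated.

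**Figure D1:**
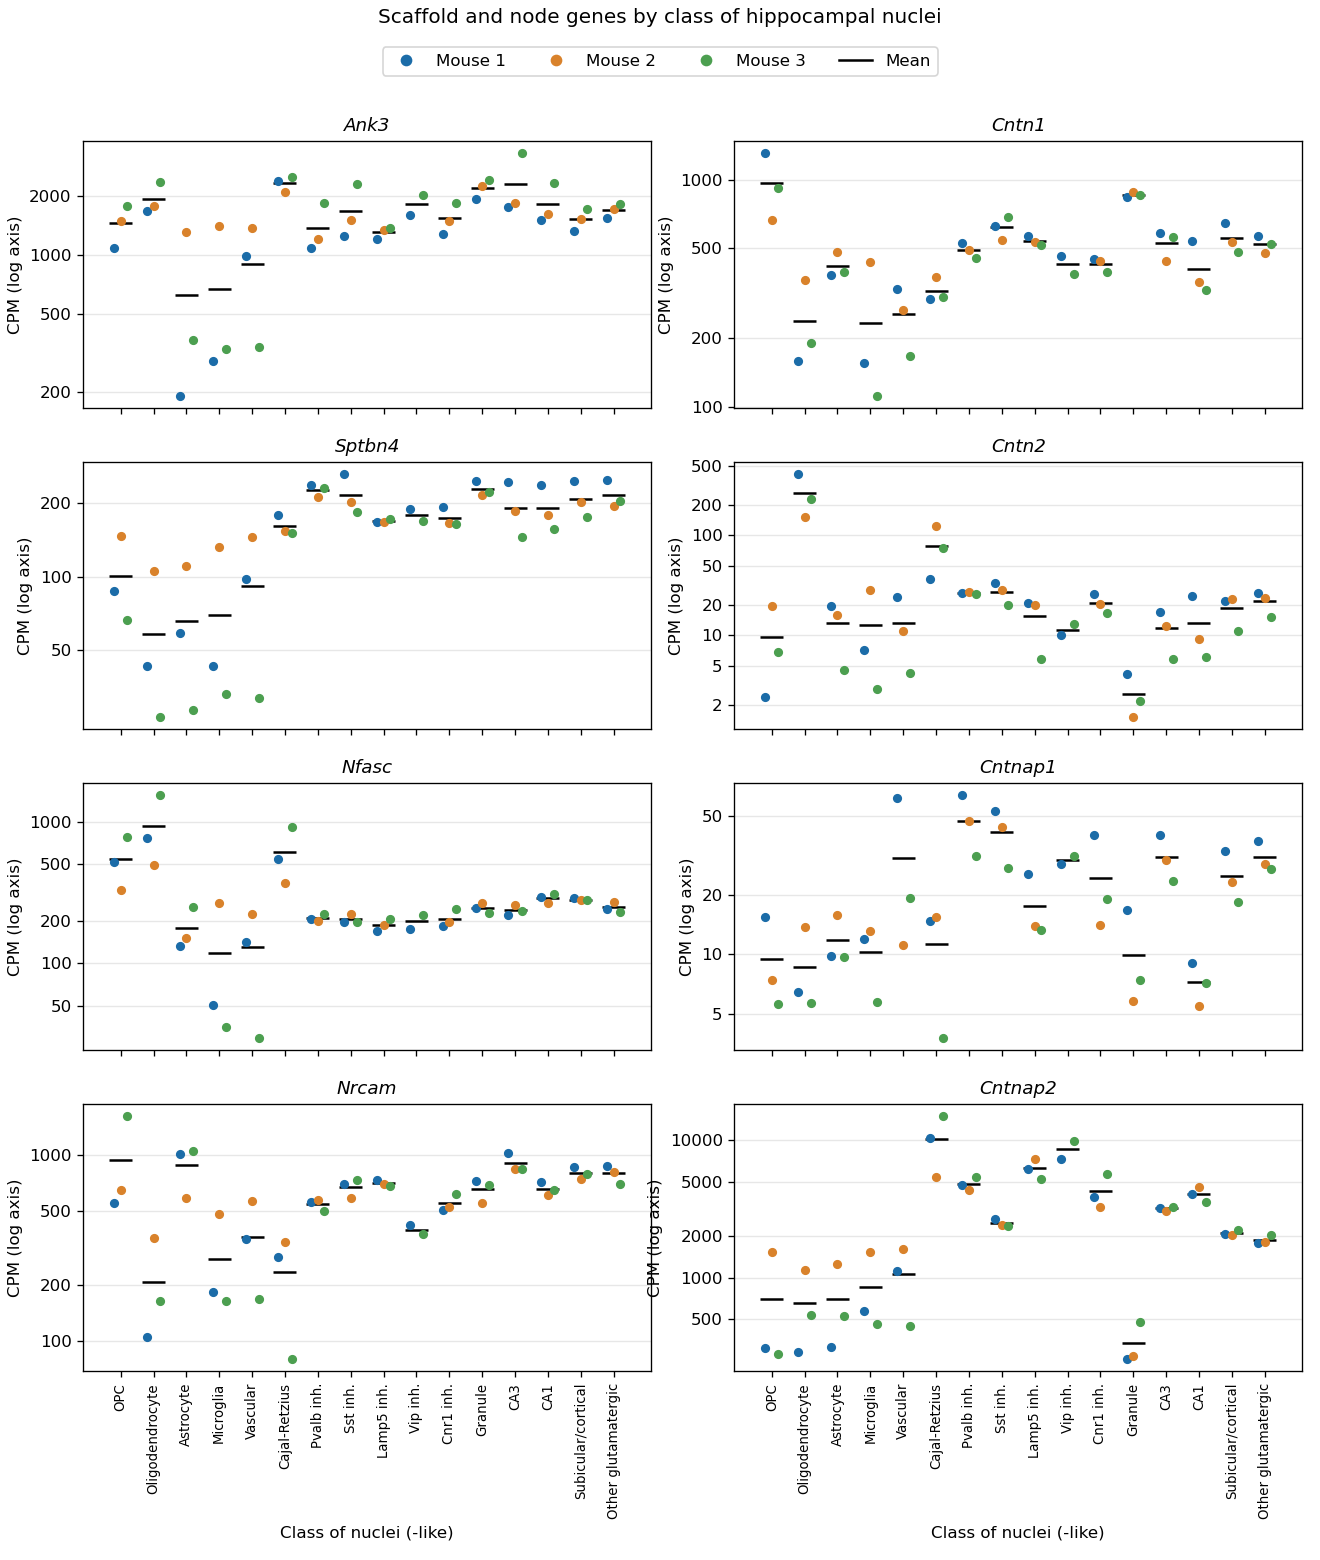
Level of each gene (CPM, log axis) in 16 marker-defined classes of nuclei, with 1 point per mouse and the mean as a bar (n = 3 mice; 2 for Vip inhibitory). Cntn2 stands highest in oligodendrocyte-like nuclei, at 410.4, 152 and 234 CPM, and Cntnap2 is low in granule-like nuclei, at 255, 269.8 and 479 CPM, beside the other neurons.

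Ank3 (chr10:69398773-70027438, plus strand, GENCODE M21) encodes ankyrin-G, the organiser of the initial segment. Its level was 1666, 1780.1 and 2354 CPM in oligodendrocyte-like nuclei, against 1594, 1693 and 2296 CPM in neuron-like nuclei, and the groups overlapped. The log2 fold change of oligodendrocyte-like over neuron-like nuclei was -0.14 ± 0.360 (SE; adjusted p = 0.777). The CPM was higher in 3 of 3 mice, whereas the fitted value, which includes TMM scaling (trimmed mean of M-values), was below 0 there and in all 10 other settings (-0.23 to -0.04). In microglia-like nuclei the level was 287, 1393 and 329 CPM and in astrocyte-like nuclei 191, 1308 and 369 CPM, low in mice 1 and 3 and high in mouse 2. As a share of the neuron-like level Ank3 stood at 105%, 105% and 103% in oligodendrocyte-like nuclei, above the neuronal markers' medians given above, and at 18.0%, 82.3% and 14.3% in microglia-like nuclei. Among the 10 markers Nrgn had the highest share in oligodendrocyte-like nuclei, 84.0%, 114% and 122%, above that of Ank3 in mice 2 and 3. The fold of oligodendrocyte-like over microglia-like nuclei, 2.28 ± 0.761 (SE; adjusted p = 0.115), missed the threshold. It passed without mouse 2 (3.08, adjusted p = 0.000616) and with DESeq2 (2.20, adjusted p = 0.00347).

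Sptbn4 (chr7:27356383-27447686, minus strand), the gene of beta-IV spectrin, which ties ankyrin-G to actin, varied little among neurons. Class means of neurons ran between 162 CPM in Cajal-Retzius-like and 229 CPM in granule-like nuclei. It held 42.9, 105 and 26.6 CPM in oligodendrocyte-like nuclei, against 242, 192 and 187 CPM in neuron-like nuclei, without overlap. It was lower in oligodendrocyte-like nuclei on the log2 scale, at -2.26 ± 0.452 (SE; adjusted p = 0.0222). Its share of the neuron-like level there, 17.7%, 55.0% and 14.2%, was near that of the 10 neuronal markers in each mouse. The part of neuronal RNA from outside these nuclei in that level was not tested. The gene Gm44924 overlaps Sptbn4 on the other strand and was at 0.0267, 0.0740 and 0.0256 CPM in neuron-like nuclei. Use of strand in counting was not stated.

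Oligodendrocyte-like against neuron-like nuclei is the comparison of the myelinating cell with the axon's cell. Of the 8 genes 7 were called (adjusted p under 0.05 and at least 1 on the log2 scale, by edgeR), against 29.2% of all genes tested. Of these, 2 were higher, Cntn2 and Nfasc (background 13.2%), and 5 were lower, Sptbn4, Nrcam, Cntn1, Cntnap1 and Cntnap2 (background 16.0%). The median of the 8 was -1.57, against -0.06 over all genes tested. Without mouse 1 and without mouse 3 edgeR called no gene at all, member or not, with 4116 and 5511 genes at an unadjusted p under 0.05. DESeq2 then called 2409 and 2670 genes and 5 and 6 of the 8.

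Cntn2 (chr1:132509427-132543256, minus strand) encodes TAG, the juxtaparanodal contactin whose upstream bases are printed above. It held 410.4, 152 and 234 CPM in oligodendrocyte-like nuclei, against 18.5, 16.3 and 7.81 CPM in neuron-like nuclei. Every oligodendrocyte-like value lay above every neuron-like one, mouse 2 being the lowest of the glial values. The log2 fold change was 4.01 ± 0.394 (SE; adjusted p = 0.0109) and ran from 3.75 to 4.46 over the other settings. It was 3.81, adjusted p = 0.0931, without mouse 1 and 3.75, adjusted p = 0.0771, without mouse 3. Shares of nuclei with a UMI were taken after thinning each nucleus to 1000 UMIs, which kept 1627, 977 and 590 oligodendrocyte-like, 4967, 3766 and 3255 neuron-like and 591, 1086 and 197 microglia-like nuclei. A Cntn2 UMI was found in 33.8%, 12.6% and 16.8% of oligodendrocyte-like nuclei, against 1.95%, 2.02% and 0.584% of neuron-like and 0.677%, 2.85% and 0.508% of microglia-like nuclei. Without thinning, at median depths of 2871, 1431 and 6090.0 UMIs in oligodendrocyte-like, 12551, 3264 and 30900.0 in neuron-like and 2463.5, 1350.5 and 6401 in microglia-like nuclei, the shares were 67.9%, 22.1% and 70.5% of oligodendrocyte-like, 20.3%, 8.85% and 19.0% of neuron-like and 2.01%, 6.07% and 2.03% of microglia-like nuclei. Its level relative to neuron-like nuclei, 2217%, 932% and 2991%, lay above that of each of the 10 neuronal markers.

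Nfasc (chr1:132564690-132741797, minus strand) encodes neurofascin, the adhesion protein that is axonal at initial segments and nodes and glial at paranodes. It held 769, 496 and 1538 CPM in oligodendrocyte-like nuclei, against 253, 256 and 251 CPM in neuron-like nuclei. The neuron-like values were nearly equal in the 3 mice, and the oligodendrocyte-like values lay above them all, lowest in mouse 2 and highest in mouse 3. The log2 fold change was 1.53 ± 0.383 (SE; adjusted p = 0.0340). It was 1.53, adjusted p = 0.215, without mouse 1 and 1.18, adjusted p = 0.150, without mouse 3. The overlapping antisense gene Gm10538 was at 0.784, 1.36 and 3.35 CPM in oligodendrocyte-like and 0.80, 1.00 and 1.37 CPM in neuron-like nuclei, far below the levels of Nfasc. Thinned to 1000 UMIs, 51.2%, 32.8% and 73.7% of oligodendrocyte-like nuclei had an Nfasc UMI, against 23.2%, 21.5% and 20.9% of neuron-like nuclei and 5.25%, 19.3% and 2.54% of microglia-like nuclei. Unthinned, the shares were 83.3%, 47.5% and 99.0% of oligodendrocyte-like, 90.8%, 59.5% and 98.6% of neuron-like and 11.2%, 32.2% and 14.2% of microglia-like nuclei.

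The other 4 genes that were lower in oligodendrocyte-like nuclei encode adhesion proteins. Nrcam, the gene of the adhesion molecule NrCAM, held 104, 357 and 165 CPM in oligodendrocyte-like nuclei, against 786, 699.8 and 709 CPM in neuron-like nuclei, and the log2 fold change was -2.20 ± 0.438 (SE; adjusted p = 0.0220). Cntn1, the gene of contactin, held 159, 362 and 191 CPM in oligodendrocyte-like nuclei, against 641, 508 and 579.5 CPM in neuron-like nuclei, and the log2 fold change was -1.57 ± 0.374 (SE; adjusted p = 0.0304). In neither gene did the groups overlap, and the oligodendrocyte-like value was highest in mouse 2, where neuronal markers in these nuclei were also highest. Cntnap1, the Caspr gene, held 6.46, 13.6 and 5.68 CPM in oligodendrocyte-like nuclei, against 26.5, 22.1 and 14.7 CPM in neuron-like nuclei, and the log2 fold change was -1.56 ± 0.302 (SE; adjusted p = 0.0211). Cntnap2, the Caspr2 gene, held 286, 1129 and 533 CPM in oligodendrocyte-like nuclei, against 2347, 2804 and 2367 CPM in neuron-like nuclei, and the log2 fold change was -2.37 ± 0.474 (SE; adjusted p = 0.0222). Both again had no overlap and their highest oligodendrocyte-like value in mouse 2. As shares of the neuron-like level, Nrcam stood at 13.2%, 51.1% and 23.2%, Cntn1 at 24.8%, 71.3% and 33.0%, Cntnap1 at 24.4%, 61.7% and 38.5% and Cntnap2 at 12.2%, 40.3% and 22.5%. The calls of Cntn1 and Cntnap2 were also lost when each library was clustered alone (-1.44, adjusted p = 0.0565 for Cntn1 and -2.24, adjusted p = 0.0505 for Cntnap2) and with thinned nuclei (-1.50, adjusted p = 0.0642 for Cntn1 and -1.96, adjusted p = 0.0503 for Cntnap2). Without mouse 1 the log2 fold changes were -2.08 for Sptbn4, -1.79 for Nrcam, -1.30 for Cntn1, -1.28 for Cntnap1 and -1.99 for Cntnap2. Without mouse 3 they were -1.78, -2.05, -1.36, -1.47 and -2.28 in the same order.

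Microglia make no myelin and served as the glial class expected to lack these genes. Of the 8 genes 1, Cntn2, was called higher in oligodendrocyte-like than in microglia-like nuclei, against 4.59% of all genes tested called higher (13.3% in either direction). It held 7.14, 28.3 and 2.88 CPM in microglia-like nuclei, below every oligodendrocyte-like value, and the log2 fold change was 4.96 ± 1.04 (SE; adjusted p = 0.0473). The call was lost without mouse 1 and without mouse 3 (4.25, adjusted p = 0.263, and 4.18, adjusted p = 0.178) and when each library was clustered alone (5.02, adjusted p = 0.0511). Nfasc held 50.6, 268 and 35.3 CPM in microglia-like nuclei, again below every oligodendrocyte-like value. Its log2 fold change of 3.83 ± 1.21 (SE; adjusted p = 0.102) was not called by edgeR. It was called without mouse 2 (5.05, adjusted p = 0.000641), with no filter on low counts (3.88, adjusted p = 0.0354) and with DESeq2 (3.78, adjusted p = 6.13e-05). For Sptbn4, Nrcam, Cntn1, Cntnap1 and Cntnap2 the values of the classes overlapped, with log2 fold changes between -0.10 and 0.49. The sign of each of these 5 turned under at least 1 other setting.

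**Figure D2:**
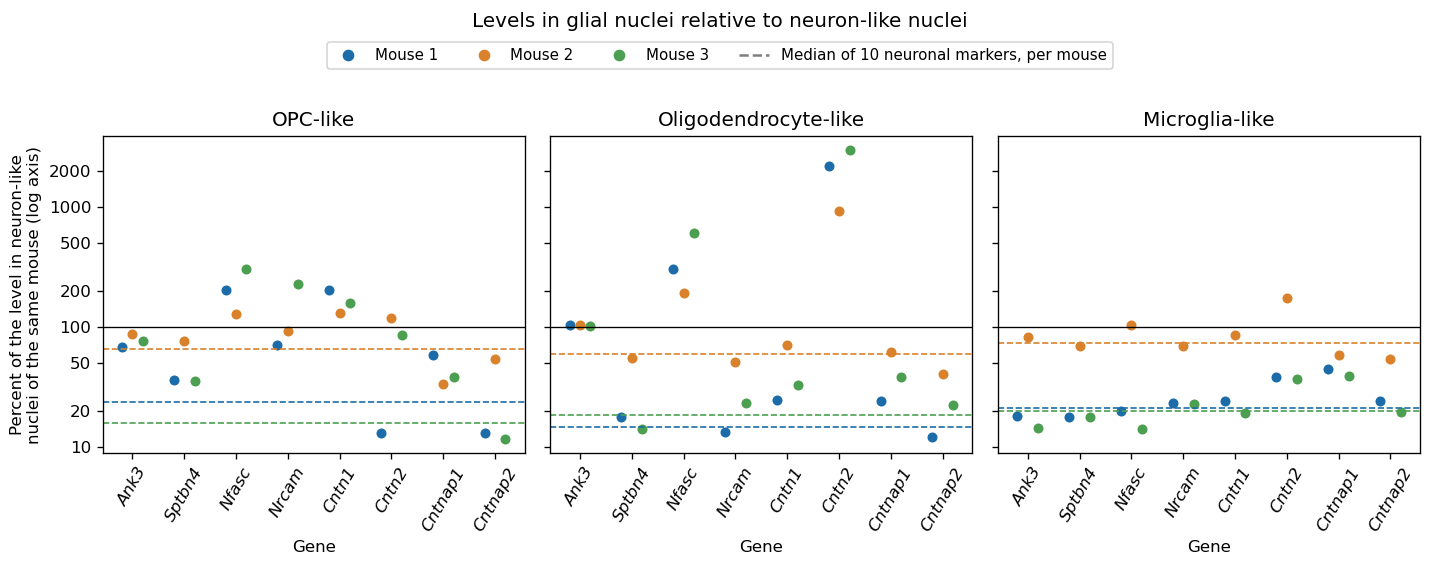
Level of each gene in OPC-, oligodendrocyte- and microglia-like nuclei as a percent of its level in neuron-like nuclei of the same mouse (log axis, 1 point per mouse). Dashed lines give the median percent of 10 neuronal markers per mouse; in oligodendrocyte-like nuclei Cntn2 (932% to 2991%) and Nfasc (194% to 612%) lie above that median in each mouse.

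Between precursor and mature cell of the oligodendrocyte lineage, the adhesion genes Cntn2, Nrcam and Cntn1 differed. Of the 8 genes 3 were called between OPC-like and oligodendrocyte-like nuclei, against 16.3% of all genes tested. Nrcam and Cntn1 were higher in OPC-like nuclei (background 8.81%) and Cntn2 was lower (background 7.44%). Cntn2 held 2.44, 19.5 and 6.76 CPM in OPC-like nuclei, against 410.4, 152 and 234 CPM in oligodendrocyte-like nuclei, with no overlap, and the log2 fold change was -4.83 ± 0.742 (SE; adjusted p = 0.0141). Without mouse 3 it was -4.64, adjusted p = 0.108.

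Nrcam (chr12:44328885-44601964, plus strand), the gene of the neuronal cell adhesion molecule of nodes, held 552, 649 and 1627 CPM in OPC-like nuclei, against 104, 357 and 165 CPM in oligodendrocyte-like nuclei. The groups did not overlap, and mouse 3 was far above the others in OPC-like nuclei. The log2 fold change was 2.18 ± 0.513 (SE; adjusted p = 0.0391). It was 2.10, adjusted p = 0.130, without mouse 1, 1.64, adjusted p = 0.165, without mouse 3 and 2.20, adjusted p = 0.0592, without mouse as a block. Cntn1 (chr15:92051165-92341967, plus strand), the gene of contactin, the axonal partner of Caspr, held 1309.7, 664 and 917 CPM in OPC-like nuclei, against 159, 362 and 191 CPM in oligodendrocyte-like nuclei. The groups did not overlap, and the log2 fold change was 2.04 ± 0.467 (SE; adjusted p = 0.0361). It was 1.58, adjusted p = 0.111, without mouse 1 and 1.97, adjusted p = 0.195, without mouse 3. As shares of the neuron-like level, Cntn1 reached 204%, 131% and 158% and Nrcam 70.2%, 92.8% and 229.5% in OPC-like nuclei, where the neuronal markers had medians of 23.5%, 66.0% and 15.9%.

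Nfasc was lower in OPC-like nuclei in 3 of 3 mice, at 519, 331 and 775 CPM, but the groups overlapped and the log2 fold change of -0.74 ± 0.245 (SE; adjusted p = 0.0940) did not pass. Its OPC-like level exceeded the neuron-like level of each mouse, at 205%, 129% and 308%. Sptbn4 passed the adjusted p in this comparison under the fold minimum, at 0.90 ± 0.216 (SE; adjusted p = 0.0405), and was called without mouse 2 (1.13, adjusted p = 0.00986) and with doublets kept (1.11, adjusted p = 0.0407). It did not pass the adjusted p with DESeq2, without mouse as a block, without mouse 1 or without mouse 3. Nor did it pass with each library clustered alone or with thinned nuclei, and its fold ran from 0.36 to 1.13 over the other settings. Ank3 (-0.46), Cntnap1 (0.17) and Cntnap2 (-0.16) did not pass, and Cntnap1 rests on 37 UMIs over the OPC-like nuclei of all mice. Without mouse 3 edgeR called no gene in this comparison (2788 at an unadjusted p under 0.05; 919 by DESeq2, 3 of the 8 among them), and without mouse 1 or with each library clustered alone it called 1 of the 8.

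Nrcam was also high in astrocyte-like nuclei, at 1016, 586 and 1052 CPM, which is 129%, 83.8% and 148% of the neuron-like level. These rest on 42, 68 and 121 nuclei. Cajal-Retzius-like nuclei, early-born neurons of the outer layers, numbered 48, 38 and 24 and had the highest mean of Cntnap2 and Ank3. Cntnap2 held 10314, 5401 and 14943 CPM there and Nfasc 543, 370.3 and 916 CPM. Cntn2 held 36.7, 123 and 75.7 CPM, below each oligodendrocyte-like value and above every value of the other named classes. These values rest on 38 UMIs in all, and Sst-like nuclei reached 33.1 CPM. Nrcam, at 283, 339 and 79.5 CPM, had its lowest mean among neurons in Cajal-Retzius-like nuclei. No test was made of this class.

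**Figure D3:**
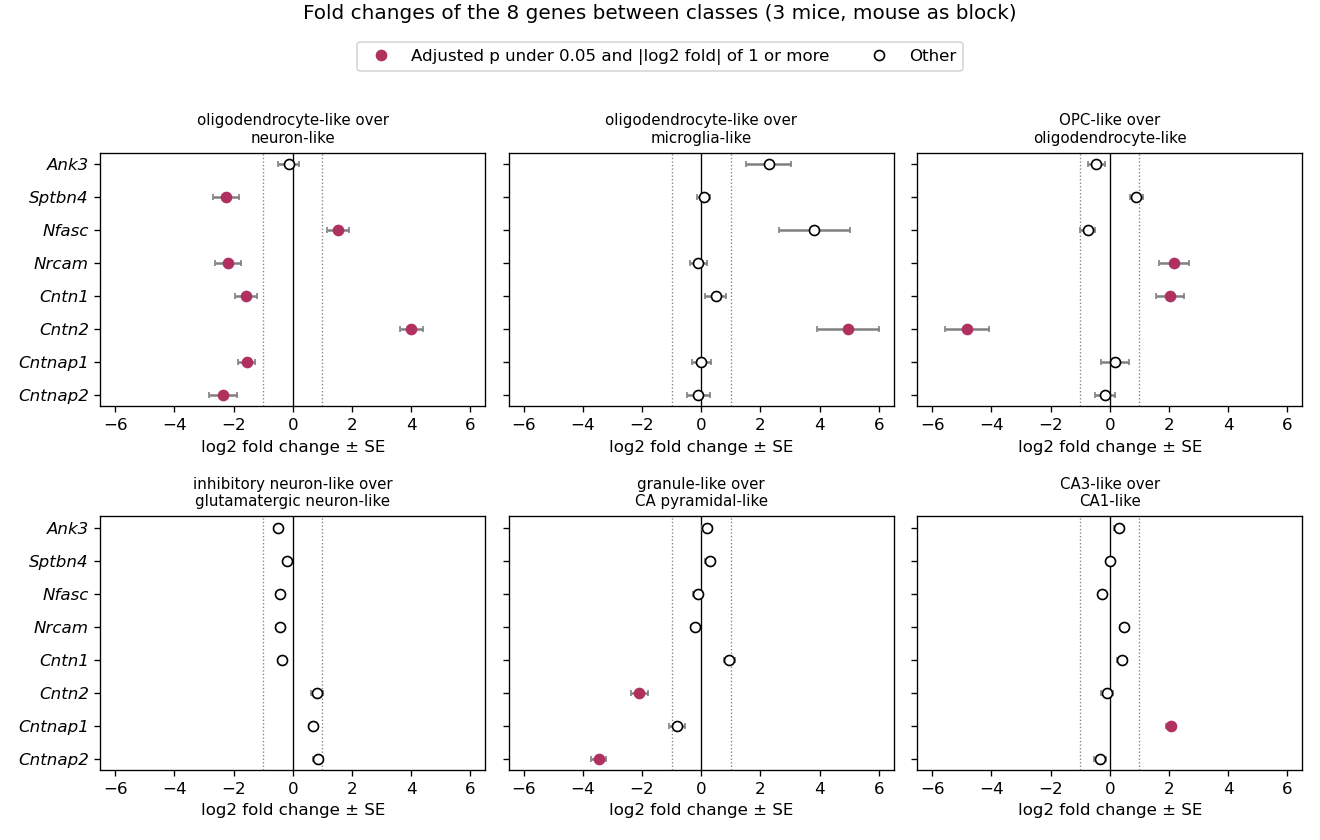
Log2 fold change of each gene (± SE, edgeR, mouse as a block, n = 3 mice) in 6 comparisons between classes, with dotted lines at the fold minimum and filled points for called genes. Called genes number 7, 1, 3, 0, 2 and 1 in the order of the panels.

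Inhibitory neuron-like against glutamatergic neuron-like nuclei gave small differences. EdgeR and DESeq2 called 0 of the 8 genes, against 14.8% of all genes tested by edgeR, and 7 had an unadjusted p under 0.05. By the adjusted p alone 6 of the 8 passed (background 25.1%). That count was 0 without mouse 1, without mouse 3 and without mouse as a block, and 3 without mouse 2. With thinned nuclei it was 1, and with each library clustered alone 4. It stayed at 6 with DESeq2, with its size factors and with doublets kept, and was 7 with no filter on low counts. The Caspr2 gene Cntnap2 (chr6:45059357-47304213, plus strand) held 4422, 3776 and 4969 CPM in inhibitory neuron-like nuclei, against 2069, 2493 and 2090.1 CPM in glutamatergic neuron-like nuclei, without overlap. Its log2 fold change was 0.85 ± 0.176 (SE; adjusted p = 0.0230), and it was called without mouse 2 (1.04, adjusted p = 0.0121) and with thinned nuclei (1.11, adjusted p = 0.0236). Cntn2 (0.82 ± 0.205, adjusted p = 0.0377) and Cntnap1 (0.67 ± 0.122, adjusted p = 0.0162) were also higher in inhibitory neuron-like nuclei. Ank3 (-0.48 ± 0.124), Nfasc (-0.45 ± 0.104) and Nrcam (-0.45 ± 0.111) were lower, with adjusted p of 0.0412, 0.0306 and 0.0374. The glutamatergic sums include granule-like nuclei, 1829 of 4411, 246 of 2545 and 1337 of 2970. Granule-like nuclei held 255, 269.8 and 479 CPM of Cntnap2 and 4.10, 1.53 and 2.23 CPM of Cntn2. For Cntnap2, CA1-like nuclei held 4058, 4575 and 3547 CPM, which overlapped the inhibitory neuron-like values. CA3-like nuclei, at 3236, 3052 and 3291 CPM, lay below them.

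Among inhibitory subtypes the Caspr genes are given as levels, with no test. Cntnap2 was 7273 and 9879 CPM in Vip-like nuclei of mice 1 and 3, the only mice with at least 20 such nuclei. In mice 1, 2 and 3 it was 6214, 7313 and 5235 CPM in Lamp5-like, 4731, 4319 and 5396 CPM in Pvalb-like and 2669.6, 2433 and 2395 CPM in Sst-like nuclei. In Cnr1-like nuclei it was 3847, 3265 and 5644 CPM, and the Sst-like values lay below all those of the other 4 subtypes. Cntnap1 was highest in Pvalb-like nuclei, in the interneuron class known for myelinated axons, at 63.3, 46.7 and 31.2 CPM, and in Sst-like nuclei, at 52.6, 43.7 and 27.1 CPM, which overlapped.

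Granule-like nuclei of the dentate gyrus stood apart from the CA fields in the juxtaparanodal pair. Of the 8 genes 2, Cntnap2 and Cntn2, were called between granule-like and CA pyramidal-like nuclei, both lower, against 11.9% of all genes tested called lower and 17.8% in either direction. Cntnap2 held 255, 269.8 and 479 CPM in granule-like nuclei, against 3794, 3619.8 and 3451 CPM in CA pyramidal-like nuclei. All granule-like values were far below all CA values, and the log2 fold change was -3.47 ± 0.256 (SE; adjusted p = 0.000173). Cntn2 held 4.10, 1.53 and 2.23 CPM in granule-like nuclei, against 22.3, 11.2 and 6.03 CPM in CA pyramidal-like nuclei, again without overlap, and the log2 fold change was -2.09 ± 0.297 (SE; adjusted p = 0.00272). Both remained called in all 10 other settings, at -3.78 to -3.12 for Cntnap2 and -2.85 to -1.81 for Cntn2. Without the 2 CA clusters led by markers of another class, a setting added after the clusters were seen, they were -3.56, adjusted p = 0.00127 for Cntnap2 and -1.98, adjusted p = 0.00819 for Cntn2. The mix of CA fields then differed between mice. CA pyramidal-like nuclei of mouse 3 were 262 CA3-like and 9 CA1-like, against 294 and 946 in mouse 1 and 68 and 190 in mouse 2.

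After thinning, a Cntnap2 UMI was found in 21.3%, 22.4% and 32.7% of granule-like nuclei, against 92.8%, 87.8% and 91.3% of CA pyramidal-like nuclei, and in 29.1%, 70.6% and 36.0% of microglia-like nuclei. Unthinned, the shares were 78.0%, 83.3% and 99.1% of granule-like, 99.9%, 96% and 100.0% of CA pyramidal-like and 55.7%, 82.8% and 95.4% of microglia-like nuclei. The thinned granule-like share of each mouse was below the microglia-like one, and no expression is read from it. The level of Cntnap2 in microglia-like nuclei was 569, 1529 and 460.2 CPM, above the granule-like level in mice 1 and 2 and below it in mouse 3. The thinned share of Cntn2, 0.383%, 0.406% and 0.0748% in granule-like nuclei, was likewise below the microglia-like share given above. Its level in granule-like nuclei rests on 83, 5 and 81 UMIs. In CA pyramidal-like nuclei Cntn2 was above the microglia-like level in mice 1 and 3 (22.3 and 6.03 against 7.14 and 2.88 CPM). In mouse 2 it was below that level (11.2 against 28.3 CPM).

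The paranodal gene Cntn1 was higher in granule-like nuclei. It held 836, 881 and 857 CPM in granule-like nuclei, against 549.9, 407 and 414 CPM in CA pyramidal-like nuclei, without overlap, and passed the adjusted p just under the fold minimum, at 0.95 ± 0.177 (SE; adjusted p = 0.00820). It was called without mouse 1 (1.14, adjusted p = 0.0117) and with thinned nuclei (1.01, adjusted p = 0.00646). It did not pass the adjusted p without mouse 2 or without mouse as a block. Over the 10 other settings the log2 fold change of Cntn1 ran from 0.83 to 1.14, with an edgeR or DESeq2 adjusted p of at most 0.0800. Its partner gene Cntnap1 held 16.7, 5.83 and 7.40 CPM in granule-like nuclei, against 18.9, 20.7 and 13.2 CPM in CA pyramidal-like nuclei. The log2 fold change of -0.81 ± 0.269 (SE; adjusted p = 0.0687) did not pass. Over the 10 other settings it ran from -1.16 to -0.51, with an edgeR or DESeq2 adjusted p from 0.0119 to 0.555. Cntnap1 was called in 1 of them, without mouse 1 (-1.16, adjusted p = 0.0415). Ank3 (0.19), Sptbn4 (0.30), Nfasc (-0.12) and Nrcam (-0.21) did not pass, and the classes overlapped for all 4. Markers of oligodendrocytes summed to 531, 555 and 446 CPM in granule-like and 109, 377 and 94 CPM in CA pyramidal-like nuclei. Those of astrocytes went the other way, at 557, 422 and 447 CPM in granule-like and 2129, 1147 and 2147 CPM in CA pyramidal-like nuclei. In neither list did the groups overlap, and their part in these results was not tested. The astrocyte list holds Gpc5, which was among the 10 leading genes of both CA1-like clusters. The part of Gpc5 in the astrocyte sums was not tested.

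**Figure D4:**
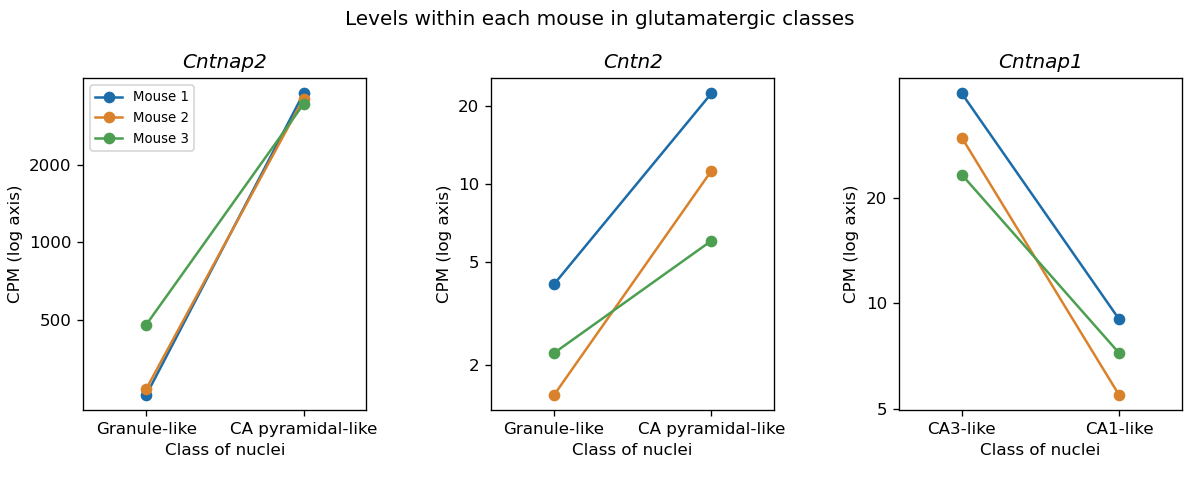
Levels (CPM, log axis) of Cntnap2 and Cntn2 in granule-like and CA pyramidal-like nuclei and of Cntnap1 in CA3-like and CA1-like nuclei, with a line for each mouse. Cntnap2 and Cntn2 are lower in granule-like nuclei and Cntnap1 is higher in CA3-like nuclei in 3 of 3 mice.

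Between CA3-like and CA1-like nuclei 1 of the 8 genes was called. Cntnap1 (chr11:101170523-101190724, plus strand), the gene of Caspr, the axonal paranodal protein, was higher in CA3-like nuclei, against 4.90% of all genes tested called higher and 8.47% in either direction. It held 39.7, 29.7 and 23.3 CPM in CA3-like nuclei, against 9.0, 5.47 and 7.20 CPM in CA1-like nuclei. The groups did not overlap, the log2 fold change was 2.07 ± 0.154 (SE; adjusted p = 0.000859), and the gene remained called in all 10 other settings (1.92 to 2.52). After thinning, 3.61%, 3.82% and 2.64% of CA3-like nuclei had a Cntnap1 UMI, against 0.633%, 1.04% and 0.336% of CA1-like and 1.35%, 0.921% and 2.03% of microglia-like nuclei. Unthinned, the shares were 56.4%, 15.1% and 67.9% of CA3-like, 13.3%, 9.33% and 22.4% of CA1-like and 3.36%, 3.26% and 4.06% of microglia-like nuclei.

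Plekhh3 and Ccr10 lie on the other strand and overlap Cntnap1. Plekhh3 was at 5.48, 2.11 and 3.44 CPM in CA3-like and 2.98, 1.64 and 1.15 CPM in CA1-like nuclei, and Ccr10 was at 0, 0 and 0.127 CPM in CA3-like and 0, 0 and 0.0383 CPM in CA1-like nuclei. Without the clusters led by markers of another class, which leaves mice 1 and 2, the log2 fold change of Cntnap1 was 2.16, adjusted p = 5.67e-05. Nrcam (0.47 ± 0.127, adjusted p = 0.0566) was higher in CA3-like nuclei in 3 of 3 mice without overlap but did not pass. Over the 10 other settings its edgeR or DESeq2 adjusted p ran from 0.0138 to 0.590, at log2 fold changes of 0.39 to 0.54. Nfasc (-0.26 ± 0.110, adjusted p = 0.185) and Cntnap2 (-0.32 ± 0.20, adjusted p = 0.363) were below in 3 of 3 mice without overlap and did not pass either. In the other settings the edgeR or DESeq2 adjusted p ran from 0.0757 to 0.897 for Nfasc and from 0.0483 to 0.905 for Cntnap2. Cntnap2 held 3236, 3052 and 3291 CPM in CA3-like nuclei, against 4058, 4575 and 3547 CPM in CA1-like nuclei. The values of Ank3 (0.33), Sptbn4 (0.02), Cntn1 (0.42) and Cntn2 (-0.09) overlapped, and none of these 4 passed. Summed markers of astrocytes were at 455, 579 and 1108 CPM in CA3-like and 2921, 2103 and 2772 CPM in CA1-like nuclei, and those of oligodendrocytes at 118, 545 and 109 CPM in CA3-like and 105, 93.5 and 84.9 CPM in CA1-like nuclei. Neither pair of groups overlapped, and their part in these results was not tested. Gpc5, a leading gene of both CA1-like clusters, is again in the astrocyte sums.

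Relatives of the 8 genes in the ankyrin, spectrin, L1, contactin and Caspr families formed a list of 17, and 38 other genes of the initial segment and node a further list, of which 35 to 37 were tested. In oligodendrocyte-like over neuron-like nuclei, 14 of 17 relatives were lower and none was higher by edgeR (14 at an unadjusted p under 0.05), with a median log2 fold change of -2.16. Over all genes tested 13.2% were called higher and 16.0% lower. The Caspr relatives Cntnap4 (-2.57 ± 0.304) and Cntnap5c (-2.54 ± 0.405), the contactin Cntn5 (-2.52 ± 0.513) and the ankyrin Ank1 (-2.49 ± 0.333) were among them. Of 36 other segment and node genes 7 were higher and 15 lower, with a median of -0.79. The perinodal matrix link protein gene Hapln2 (7.03 ± 0.873), Lgi3 (3.52 ± 0.393), whose protein binds the Adam receptors, and the juxtaparanodal potassium channel gene Kcna1 (2.52 ± 0.335) were higher, and the sodium channel partner gene Fgf14 (-2.21 ± 0.524) was lower. The adjusted p of these named genes was at most 0.0302.

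In oligodendrocyte-like over microglia-like nuclei edgeR called 0 of 17 relatives (3 at an unadjusted p under 0.05; 3 by DESeq2). It called 4 of 35 other genes, all higher: Hapln2 (5.53 ± 1.14), Lgi3 (3.93 ± 0.801), the potassium channel gene Kcna2 (2.48 ± 0.467) and the adhesion gene Cadm4 (2.06 ± 0.400), with adjusted p of at most 0.0449, where 4.59% of all genes tested were called higher and 13.3% in either direction. In OPC-like over oligodendrocyte-like nuclei 5 of 17 relatives were called, all higher, among them Cntn6 (4.20 ± 0.559), Cntn4 (2.44 ± 0.422), Ank1 (2.51 ± 0.488) and the L1 relative Chl1 (2.09 ± 0.425). The median of the relatives was 0.57, against -0.02 over all genes tested, of which 8.81% were called higher and 7.44% lower. Of 35 other genes 4 were higher and 3 lower, not far from those shares. The matrix proteoglycan gene Bcan was higher (3.88 ± 0.359), and Hapln2 (-5.58 ± 0.585), Lgi3 (-3.16 ± 0.529) and Kcna1 (-2.56 ± 0.292) were lower (adjusted p of at most 0.0269).

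In inhibitory over glutamatergic neuron-like nuclei 4 of 17 relatives were higher, where 7.61% of all genes tested were called higher. Cntnap3 (4.23 ± 0.158), Cntnap4 (3.02 ± 0.254) and Ank1 (1.51 ± 0.222) were among them. Of 37 other genes 5 were higher and 1 lower, where 7.16% of all genes tested were called lower. The sodium channel partner Fgf13 (2.63 ± 0.191), Lgi2 (2.45 ± 0.143) and Cadm4 (1.39 ± 0.165) were higher, and Synpo (-2.39 ± 0.332), the gene of synaptopodin of the cisternal organelle, was lower (adjusted p of at most 0.00954).

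In granule-like over CA pyramidal-like nuclei 3 of 17 relatives were higher, where the background was 5.89%, and 5 lower, where it was 11.9%. Cntnap5c (-5.42 ± 0.236) and L1cam (-1.88 ± 0.212) were lower, whereas Cntn5 (3.86 ± 0.228) and Cntnap5a (2.86 ± 0.408) were higher. Of 36 other genes 3 were higher and 8 lower, with Bcan (-3.85 ± 0.220) and Cadm4 (-1.63 ± 0.292) lower and Fgf13 (1.54 ± 0.212) and Lgi3 (1.43 ± 0.208) higher (adjusted p of at most 0.00696). Means in granule-like and CA pyramidal-like nuclei were 1.88 and 28.7 CPM for Bcan and 270 and 90.7 CPM for Fgf13. They were 2.77 and 7.96 CPM for Cadm4 and 15.5 and 6.25 CPM for Lgi3. Microglia-like means were 11.6 CPM for Cadm4 and 11.1 CPM for Lgi3. In CA3-like over CA1-like nuclei 1 of 17 relatives was higher, Cntnap4 (1.30 ± 0.205), and 3 were lower, Ank1 (-3.42 ± 0.307), Cntn4 (-2.17 ± 0.224) and Cntn3 (-1.09 ± 0.143), where 4.90% of all genes tested were called higher and 3.57% lower. Of 36 other genes 4 were higher and 1 lower. The node ligand gene Gldn (3.11 ± 0.306), Kcna1 (1.35 ± 0.152), Lgi3 (1.23 ± 0.274) and Lgi2 (1.21 ± 0.301) were higher (adjusted p of at most 0.0447). Mean levels were low in CA3-like and CA1-like nuclei for Gldn (5.97 and 0.620 CPM), Lgi3 (8.78 and 3.81 CPM) and Lgi2 (5.14 and 2.26 CPM). Kcna1 was at 79.8 and 33.8 CPM. In oligodendrocyte-like nuclei the means were 338 CPM for Kcna1 and 135 CPM for Lgi3. The part of RNA from outside the nuclei in these folds was not tested.

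The 3 genes of most similar pattern were sought for each member by Pearson's r of log2(CPM + 1) over 45 sums (15 classes in 3 mice). Candidates were the 7053 genes with a mean of at least 10 CPM and a UMI in every sum. A gene missing from any sum was left out, however close its pattern. The sums share libraries and depth, so r is a description. For Ank3 they were Ccser1 (0.84), Nbea (0.83) and Akap6 (0.83). Sptbn4 had the closest matches, Unc80 (0.95), Ksr2 (0.94) and Grin1 (0.94). Those of Nfasc were Ncam1 (0.80), 1500004A13Rik (0.78) and Dscaml1 (0.78), of Nrcam Nebl (0.82), Adgrb3 (0.82) and 3110039M20Rik (0.80), of Cntn1 Tnr (0.80), Mmp16 (0.80) and Fgf14 (0.79) and of Cntn2 Ttll5 (0.81), Larp6 (0.79) and Aatk (0.79). Cntnap1 had the least close, Nrip3 (0.75), Kifc2 (0.74) and Habp4 (0.74), and Cntnap2 had Frmpd3 (0.88), Homer2 (0.85) and Snhg11 (0.85). No member was among the matches of another.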

How the data were processed

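Nuclear RNA was counted by 10x 3' single-nucleus sequencing of sorted hippocampal nuclei from 3 mice. The authors deposited raw UMI counts per gene and barcode, which per the file headers came from Cell Ranger 7.0.0 (mice 1 and 2) or 7.1.0 (the third), on mm10 per the submitters' processing notes. Intronic reads are not mentioned in the sources used here. The deposited barcode calls were used, and nuclei with under 500 genes or over 5% mitochondrial UMIs were removed. Doublets were called with Scrublet in scanpy 1.11.5, and removed (731, 1468 and 257 barcodes); in mouse 2 its automatic threshold marked 0, so the highest scores up to a rate of 0.8% per 1000 barcodes were taken. Nuclei were clustered together on 3000 variable genes, without the listed genes (leidenalg 0.10.2, resolution 1.5). Cell type names were rebuilt from marker lists, and the scoring of clusters was adjusted after they were seen.

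UMIs were summed per class and mouse, with at least 20 nuclei in each. Nuclei are not replicates, and n is 3 mice. The main test was edgeR 4.0.16 (quasi-likelihood, TMM, filterByExpr, mouse as a block), adjusted by Benjamini-Hochberg over all genes tested and called at an adjusted p under 0.05 with an absolute log2 fold of 1 or more. All 8 genes passed the filter in each comparison. Both classes come from the same animal, and deviations of same-mouse sums correlated in every comparison (lowest r 0.150). DESeq2 1.42.0, other size factors, no low-count filter, no block, leaving out each mouse, thinned nuclei, doublets kept and separate clustering were tried as well. The gene fits were tested on simulated data. The members and lists were chosen with earlier results of these data known. All 8 members are named in each comparison, with the 4 called genes of largest fold in each further list, and the 3 genes of most similar pattern; 1 result named by that rule is not reported here. Each SE is the absolute log2 fold change over the square root of the test's F value. Limits from a count of 0 cover counting error only. Gene positions are from GENCODE M21 on GRCm38, and the sequences before annotated starts from RefSeq on GRCm38.p6.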

Additional observations from a re-analysis of the deposited data

Results flagged for a closer look

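The nuclei that no marker list named were in no comparison, yet UMIs of the 8 scaffold genes were counted in them. Summed over the 8, the level in unnamed nuclei was 3814, 5525 and 4234 CPM in mice 1, 2 and 3, against 5907, 6191 and 6412 CPM in neuron-like nuclei. These values rest on 1899, 62709 and 1221 UMIs in 338, 4239 and 31 nuclei, where a count of 0 would have allowed up to 6.03, 0.264 and 10.4 CPM (3 counts, counting error only). That limit does not cover RNA from outside the nuclei. Ank3 held 1165, 1674 and 1886 CPM in unnamed nuclei, against 287, 1393 and 329 CPM in microglia-like nuclei. The part of outside RNA in the unnamed nuclei was not tested. Cntn2 alone held 46.2, 19.3 and 101 CPM in them.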

How the results depend on the processing

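The DESeq2 fits without a mouse were added after the data were seen. For oligodendrocyte-like over neuron-like, edgeR called 4849 genes, and 0 to 6426 with each mouse left out in turn (2409, 5568 and 2670 by DESeq2 without mice 1, 2 and 3), and 2120 with nuclei thinned to 1000 UMIs. For oligodendrocyte-like over microglia-like, edgeR called 1812 genes, and 0 to 3923 with each mouse left out in turn (1243, 3025 and 1486 by DESeq2 without mice 1, 2 and 3), and 2836 with the DESeq2 test and 3027 with no filter on low counts. For OPC-like over oligodendrocyte-like, edgeR called 2012 genes, and 0 to 3187 with each mouse left out in turn (969, 2425 and 919 by DESeq2 without mice 1, 2 and 3), and 1287 with nuclei thinned to 1000 UMIs. For inhibitory over glutamatergic neuron-like, edgeR called 2413 genes, and 798 to 2876 with each mouse left out in turn (1600, 2541 and 1642 by DESeq2 without mice 1, 2 and 3), and 1257 with mouse not used as a block and 894 with nuclei thinned to 1000 UMIs. For granule-like over CA pyramidal-like, edgeR called 2886 genes, and 2284 to 2610 with each mouse left out in turn (2110, 2370 and 2028 by DESeq2 without mice 1, 2 and 3), and 1610 with mouse not used as a block and 1222 with nuclei thinned to 1000 UMIs. For CA3-like over CA1-like, edgeR called 1254 genes, and 974 to 1248 with each mouse left out in turn (719, 1033 and 805 by DESeq2 without mice 1, 2 and 3), and 245 with mouse not used as a block and 417 with nuclei thinned to 1000 UMIs. Where edgeR called 0 genes over microglia-like nuclei, without mice 1 and 3, 2209 and 3035 had an unadjusted p under 0.05. Of the 8 genes the calls were 7 for oligodendrocyte-like over neuron-like (0 to 7 with a mouse left out, 5, 7 and 6 by DESeq2 without mice 1, 2 and 3) and 1 for oligodendrocyte-like over microglia-like (0 to 3 with a mouse left out, 2, 3 and 2 by DESeq2 without mice 1, 2 and 3, 3 with the DESeq2 test, 2 with no filter on low counts, 0 with each library clustered alone). They were 3 for OPC-like over oligodendrocyte-like (0 to 4 with a mouse left out, 3 by DESeq2 without mice 1, 2 and 3, 1 with each library clustered alone), 0 for inhibitory over glutamatergic neuron-like (0 to 1 with a mouse left out, 0, 1 and 0 by DESeq2 without mice 1, 2 and 3, 1 with nuclei thinned to 1000 UMIs). They were 2 for granule-like over CA pyramidal-like (2 to 4 with a mouse left out, 3, 2 and 2 by DESeq2 without mice 1, 2 and 3) and 1 for CA3-like over CA1-like (1 with a mouse left out, 1 by DESeq2 without mice 1, 2 and 3). Fits without mouse as a block kept the calls of the 8 genes in every comparison other than Nrcam in OPC-like over oligodendrocyte-like nuclei (2.20, adjusted p = 0.0592). Signs turned for log2 fold changes that were not called. In oligodendrocyte-like over microglia-like nuclei these were Sptbn4 (0.086, and -0.085 with mouse not used as a block, -1.03 with doublets kept, -0.050 to 0.24 with a mouse left out, -0.12 by DESeq2 without mouse 1 and -0.027 by DESeq2 without mouse 3), Nrcam (-0.10, and 0.13 with each library clustered alone, -0.41 to 0.073 with a mouse left out and 0.000295 by DESeq2 without mouse 1), Cntn1 (0.49, and -0.49 with doublets kept), Cntnap1 (0.0016, and -0.074 with DESeq2 size factors, -0.064 with the DESeq2 test, -0.028 with mouse not used as a block, -0.33 with doublets kept, -0.16 to 0.27 with a mouse left out, -0.097 by DESeq2 without mouse 2 and -0.25 by DESeq2 without mouse 3), Cntnap2 (-0.099, and 0.24 with each library clustered alone, 0.15 with nuclei thinned to 1000 UMIs, -0.50 to 0.17 with a mouse left out and 0.098 by DESeq2 without mouse 1). In OPC-like over oligodendrocyte-like nuclei these were Cntnap1 (0.17, and -0.43 to 0.66 with a mouse left out and -0.46 by DESeq2 without mouse 1), Cntnap2 (-0.16, and 0.059 with mouse not used as a block, 0.30 with doublets kept, -0.46 to 0.28 with a mouse left out and 0.28 by DESeq2 without mouse 3). In CA3-like over CA1-like nuclei these were Sptbn4 (0.016, and -0.0073 with DESeq2 size factors, -0.0068 with the DESeq2 test, -0.033 with each library clustered alone, -0.0060 with doublets kept, -0.056 to 0.026 with a mouse left out and -0.052 by DESeq2 without mouse 1), Cntn2 (-0.088, and -0.26 to 0.13 with a mouse left out and 0.14 by DESeq2 without mouse 1). The cause of these shifts was not tested, though fewer mice and, for thinning, fewer UMIs enter by construction. Of the 48 log2 fold changes of the members, 30 without mouse 1, 42 without mouse 2, 35 without mouse 3, 40 with each library clustered alone, 42 with doublets kept, 44 with no block, 44 with DESeq2, 46 with its size factors and 47 with no low-count filter kept their direction and side of the threshold. With thinned nuclei, where some did not pass the low-count filter, 40 did, 2 were lost, 2 were gained and 1 turned sign. Depth limits mouse 2 most, and Cntn2 and Cntnap1 outside their highest classes.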

Other observations

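Cntn2 and Nfasc, the members higher in oligodendrocyte-like than in neuron-like nuclei, are neighbours on chromosome 1. They lie 21.4 kb apart on the minus strand, with no other counted gene between them. Of the other genes within 250 kb of the pair 10 were tested, of which 3 were called higher and 1 lower in oligodendrocyte-like nuclei by edgeR, where 13.2% of all genes tested were called higher and 16.0% lower. Those higher were Klhdc8a (2.51 ± 0.398, adjusted p = 0.0152), Tmcc2 (2.32 ± 0.309, adjusted p = 0.0115) and Tmem81 (2.05 ± 0.354, adjusted p = 0.0173), and the one lower was Lrrn2 (-1.87 ± 0.331, adjusted p = 0.0181). These genes were named after their values were seen.

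Over the 45 sums of a class in a mouse, the pair of members with the highest Pearson's r of log2(CPM + 1) was Nrcam with Cntn1 (0.74) and the pair with the lowest was Nrcam with Cntn2 (-0.40). The sums share libraries and depth, and r is given as a description across classes.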
